A study of Mus musculus with 6 samples.

Results

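Long intergenic RNAs are transcripts with no recognised protein that are made from their own start sites between coding genes. Some work as RNA molecules, such as the scaffolds of nuclear bodies, while others matter mainly because their introns or exons carry small RNAs that are cut out and used elsewhere. Hosts of small nucleolar RNAs (snoRNAs, which guide the modification of ribosomal RNA) and hosts of microRNAs belong to the second kind. The long intergenic RNAs examined here were the rows of the deposited table with the biotype lincRNA and a mean of at least 2 FPKM (fragments scaled by gene length and by the mapped fragments of the library) over the 6 libraries. H19, Meg3 and Rian were left out by rule, although H19 and Meg3 averaged 0.0674 and 0.0372 FPKM and Rian had another biotype, so that this removed no gene. Members were thus chosen by their level over both groups, which is a description and was not tested. The rule kept 98 of 5559 lincRNA rows, in a table of 54532 genes.

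RNA was sequenced from LSK cells, bone marrow cells without lineage markers that carry Sca1 and c-Kit, the fraction of haematopoietic stem and progenitor cells. Control LSKs (3 libraries) came from Myh9fl/fl;no cre mice and Myh9-deficient LSKs (3 libraries) from littermates that were Myh9fl/fl;Mx1-cre, all on C57BL/6. Both groups received poly I:C at 5 mg/kg, in 2 doses by the sample descriptions and in 3 by the study's methods. The cells, 100000 for each library, were sorted 4 days after the first dose, and the methods place the injections at 5 to 6 weeks of age. Myh9 encodes the heavy chain of non-muscle myosin IIA. The controls carried the floxed alleles and the poly I:C, but no Cre. The Mx1 promoter answers to interferon, which poly I:C induces, in blood cells and in other tissues. The sources used here do not say how many mice gave each set of cells.

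Each library held 17571544 to 19894562 reads on genes. Myh9 was at 23.0, 22.6 and 22.0 FPKM in control LSKs and at 18.4, 19.96 and 17.7 FPKM in Myh9-deficient LSKs. The difference was -0.26 ± 0.049 on the log2(FPKM + 1) scale (SE, limma adjusted p = 0.00642), without overlap of the groups. In the same fit with trends of GC content and length removed, it was -0.14 (adjusted p = 0.0350). A value for the whole gene does not separate deleted from remaining exons. Among markers of the sort, Kit, Ly6a and other LSK genes were present, and of 7 tested, Myh9-deficient LSKs had 3 at higher and 1 at lower levels. Neutrophil and monocyte markers were lower in 7 of 8 (summed level 6868 to 6943 FPKM in control and 3610 to 3681 FPKM in Myh9-deficient libraries). Erythroid markers were higher in 6 of 6 tested (366 to 369 against 680 to 699 FPKM) and megakaryocyte markers in 3 of 3 (57.6 to 61.2 against 126 to 131 FPKM). Mast cell and basophil markers were higher in 5 of 6 (90.3 to 102.4 against 149 to 158 FPKM). T and NK cell markers were higher in 4 and lower in 1 of 5 tested (summed 366 to 378 against 340 to 343 FPKM), with Cd3e at 0 in control and 0.183 to 0.282 FPKM in Myh9-deficient libraries and Cd8a at 0 in 5 of the 6. B and plasma cell markers were higher in 3 and lower in 1 of 5 tested (166 to 169 against 160 to 165 FPKM). No stroma or endothelium marker reached 1 FPKM. Over all genes tested, 19.9% were higher and 20.6% lower at an adjusted p under 0.05, the threshold of these counts. In sorted bulk samples fewer cells of a type and less RNA per cell cannot be told apart, and the part of these marker shifts in the values below was not tested.

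The small RNAs carried by 2 of the members that rose are shown first, because their sequences are what makes those hosts known in blood cells. Mir17hg (ENSMUSG00000089726, chr14:115042879-115046727, plus strand, GRCm38) is the primary transcript of the miR-17-92 cluster, a group of microRNAs known to promote proliferation and survival of progenitors. Mir142hg (ENSMUSG00000084796, chr11:87755577-87757270, plus strand) carries miR-142, a microRNA abundant in nearly all blood cells. The mature sequences below are from RefSeq on GRCm38.p6, from 5′ to 3′, with the seed (bases 2 to 8, which pair with target RNAs) in capitals:
mmu-miR-17-5p: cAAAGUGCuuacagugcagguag
mmu-miR-20a-5p: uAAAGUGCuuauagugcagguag
mmu-miR-18a-5p: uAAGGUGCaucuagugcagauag
mmu-miR-19a-3p: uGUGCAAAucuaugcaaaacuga
mmu-miR-19b-3p: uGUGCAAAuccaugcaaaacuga
mmu-miR-92a-3p: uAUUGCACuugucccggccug
mmu-miR-142a-5p: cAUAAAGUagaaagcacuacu
mmu-miR-142a-3p: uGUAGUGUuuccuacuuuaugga
miR-17-5p and miR-20a-5p share the seed AAAGUGC, and miR-19a-3p and miR-19b-3p share the seed GUGCAAA. Of the genes of these small RNAs, Mir17, Mir18, Mir19a, Mir20a, Mir19b-1, Mir92-1 and Mir142 were listed at 0 reads in all 6 libraries. Libraries of this kind are made from long polyadenylated RNA, so the values below are levels of the host transcripts and not of the microRNAs.

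Most of the long intergenic RNAs were scarce. Their mean level over the 6 libraries had a median of 3.92 FPKM, with 10 members over 20 FPKM, 26 from 5 to 20 FPKM and 62 from 2 to 5 FPKM. The reads behind a member ranged from 8 to 2668 in a library, and 21 members had fewer than 30 reads in at least 1 library. Just inside the limit of 2 FPKM stood Gm47381 at 2.09, Gm26510 at 2.08 and Gm47469 at 2.001 FPKM, and just outside it Gm1976 at 1.98, 2900076A07Rik at 1.96 and Gm14005 at 1.94 FPKM. Because the limit was set on the mean of all libraries, 3 members were under 2 FPKM in control LSKs and 5 in Myh9-deficient LSKs. The members lay on 19 chromosomes and none on the X, with 11 on chromosome 5 and 9 on chromosome 13. They were short, with a median length of 1284 bases against 3692 over all genes tested, and 20 of the 98 had a single exon in their longest annotated transcript. Small RNA genes aside, the span of 28 members overlapped that of another gene in the annotation, and reads of such pairs may be shared. The GC content of the members had a median of 49.1%, against 50.6% over all genes tested. The coefficient of variation between replicates had a median of 9.79% in control and 11.4% in Myh9-deficient LSKs.

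As a whole, the 98 transcripts took 0.148 to 0.151% of the reads of control libraries and 0.164 to 0.166% of the reads of Myh9-deficient libraries. Their summed level was 1005, 1040 and 1071 FPKM in control and 1188, 1142 and 1183 FPKM in Myh9-deficient LSKs, so that the groups did not overlap.

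The change of each member was taken from a limma fit on log2(FPKM + 1) over the 11552 genes that averaged 1 FPKM or more, two-sided, with p-values adjusted over all of these genes. At an adjusted p under 0.05, 22 members rose in Myh9-deficient LSKs (22.4%, against 19.9% of all genes tested) and 13 were lower (13.3%, against 20.6%). Both directions together gave 35 of 98, or 35.7%, against 40.5% of all genes tested, so the members were called about as often as genes in general. Among protein-coding genes of at least 2 FPKM, 21.2% were higher and 24.1% lower. Once each library had been freed of its trends with GC content and length, the split was 17 higher and 18 lower, and the excess of higher over lower calls was absent. A change of more than 2-fold at an unadjusted p under 0.05 was met by 4 members (4.08%, against 2.13% of all genes tested), 1 higher (1.43% of all genes tested) and 3 lower (0.701%). In 48 members (49%) the groups did not overlap, against 54% of all genes tested, with Myh9-deficient LSKs above in 27 (25.5% of all genes tested) and below in 21 (28.5%). All 35 called members were among these 48.

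The log2 fold changes of the members had a median of 0.072, against -0.0096 over all genes tested, and their absolute size had a median of 0.21 against 0.15. The median of the members was -0.022 once the GC and length trends were removed. The changes of all genes tested differed by length class. The 1492 tested genes under 1000 bases had a median of 0.12, with 23.4% higher and 6.37% lower. The 4741 genes from 1000 to under 4000 bases had a median of 0.043, with 27.7% higher and 17.97% lower. The 5319 genes of 4000 bases or more had a median of -0.065, with 11.9% higher and 26.9% lower. The median was thus highest in the short class, while the share of higher genes was largest in the middle class. By the same classes, 12 of the 41 members under 1000 bases were higher and 3 lower, 9 of 43 from there to 4000 bases were higher and 9 lower, and 1 of 14 from 4000 bases was higher and 1 lower. The part of transcript length in the members' changes beyond that adjusted fit was not tested. For the 63 members that were not called, the 95% interval of the log2 fold change had a median half-width of 0.23, and the bound farthest from 0 was at a size of 1.65.

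**Figure D1:**
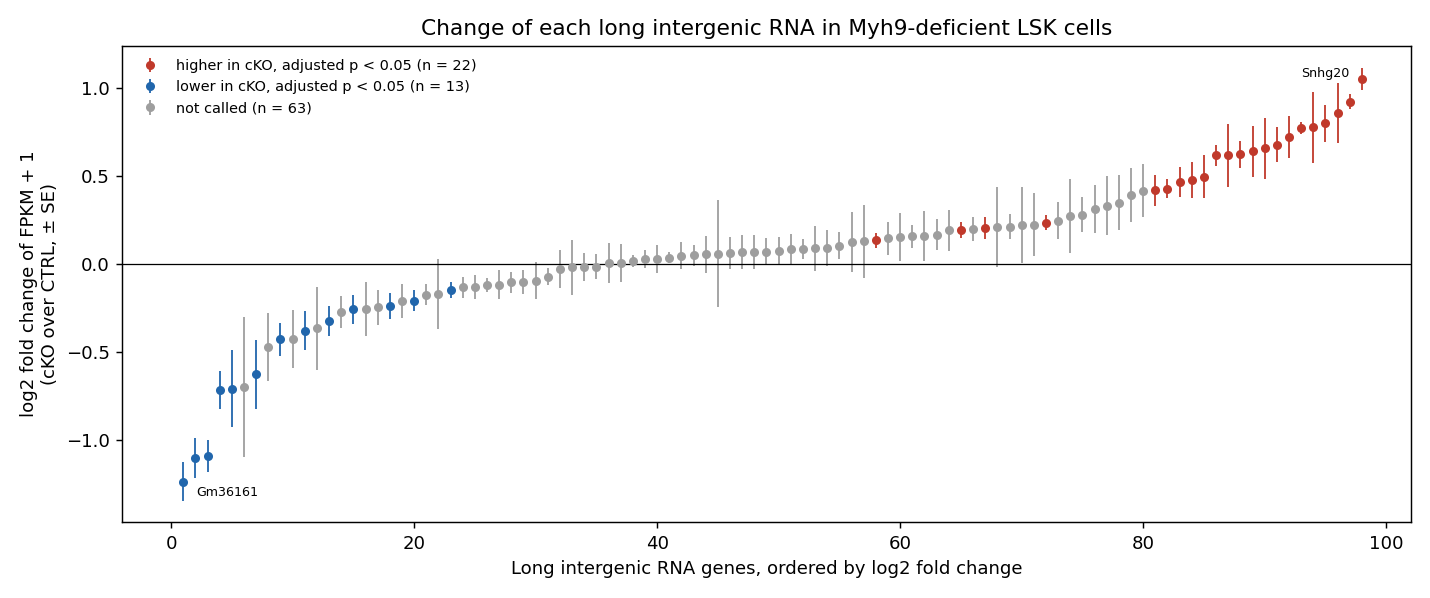
Each point is 1 of the 98 long intergenic RNAs, ordered by its log2 fold change of FPKM + 1 between Myh9-deficient (cKO) and control (CTRL) LSKs (y axis), with the standard error as a bar and the 22 higher, 13 lower and 63 not called members in different colours. Snhg20 stands at the upper end at 1.05 and Gm36161 at the lower end at -1.24, and most points lie near 0.

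A snoRNA, scaRNA (a small RNA of Cajal bodies) or microRNA gene lay inside 11 of the 98 members, and 7 of these 11 were higher, none was lower and 4 were not called, with a median log2 fold change of 0.46, where 19.9% of all genes tested were higher and 20.6% lower. With GC and length trends removed, 5 of the 11 were higher and 1 lower, and over the alternatives that tested all 11, 5 to 9 were higher. Of the other 87 members, 15 were higher and 13 lower, with a median of 0.059. The difference between these classes was not tested.

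Snhg20, which holds a scaRNA gene, showed the largest rise of all members. Its level was 10.7, 9.30 and 9.88 FPKM in control and 21.7, 23.1 and 20.2 FPKM in Myh9-deficient LSKs. Every Myh9-deficient library had about double the level of the highest control library. The log2 fold change was 1.05 ± 0.064 (SE, adjusted p = 6.5e-05) and the ratio of means 2.18.

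Snhg10, the host of Scarna13, was at 5.42, 3.11 and 4.83 FPKM in control and 7.87, 9.95 and 8.43 FPKM in Myh9-deficient LSKs. The groups did not overlap, although the control libraries spread widely and the gene had only 29 to 96 reads in a library. Its log2 fold change was 0.86 ± 0.17 (adjusted p = 0.00801). Scarna13 itself had 1, 1 and 3 reads in control and 6, 5 and 0 reads in Myh9-deficient libraries.

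Mir17hg was at 7.65, 7.64 and 7.49 FPKM in control and 12.9, 11.1 and 12.6 FPKM in Myh9-deficient LSKs. The control libraries agreed closely, and all Myh9-deficient libraries were above them. The rise was 0.62 ± 0.059 on the log2 scale (adjusted p = 4.1e-04), with 476 to 857 reads in a library.

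Mir142hg, one of the 5 most abundant members, was at 46.4, 51.5 and 40.1 FPKM in control and 61.9, 59.3 and 71.1 FPKM in Myh9-deficient LSKs. All 3 Myh9-deficient libraries were higher than every control library, with a log2 fold change of 0.47 ± 0.10 (adjusted p = 0.0109). With GC and length trends removed this was 0.27, with an adjusted p of 0.0733, and the call was lost. The coding gene next to it, Tspoap1, went from 6.65 to 4.24 FPKM, a fall of the opposite sign (log2 fold change -0.55, adjusted p = 2.3e-04).

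Epb41l4aos was the most abundant long intergenic RNA, with a snoRNA gene (Gm23639) inside. It was at 191, 173 and 189 FPKM in control and 209, 198 and 199.6 FPKM in Myh9-deficient LSKs. The rise of 0.13 ± 0.043 (adjusted p = 0.0473) was small, and with GC and length trends removed the sign turned (-0.057, adjusted p = 0.302). The call was also lost when any single library was left out. Gm23639 had 9 to 14 reads in control and 12 to 34 reads in Myh9-deficient libraries.

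Among the scarcer hosts, 2700038G22Rik, which holds Snord93, was at 1.92, 2.10 and 2.03 FPKM in control and 2.71, 3.48 and 3.34 FPKM in Myh9-deficient LSKs (0.46 ± 0.084, adjusted p = 0.00566). Smkr-ps, with the small RNA gene Gm23049 inside, was at 1.39, 1.69 and 2.30 FPKM and at 3.47, 2.72 and 3.79 FPKM (0.64 ± 0.14, adjusted p = 0.0133). Both were higher in all 3 Myh9-deficient libraries, on no more than 101 reads in a library. Snord93 itself had 0 to 1 read in control and 3 to 8 reads in Myh9-deficient libraries.

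The other 4 hosts were not called. Snhg6, the host of Snord87, was at 68.3, 70.1 and 81.8 FPKM in control and 87.5, 81.2 and 86.0 FPKM in Myh9-deficient LSKs. For Snhg6, 1 control library was inside the range of the other group (0.21 ± 0.070, adjusted p = 0.0506). Snord87 itself had 9, 5 and 1 reads in control and 4, 12 and 8 reads in Myh9-deficient libraries. Snhg12, with 5 snoRNA genes, was at 18.7, 12.5 and 15.2 FPKM and at 21.4, 17.7 and 23.3 FPKM, and the groups overlapped by 1 library (0.41 ± 0.15, adjusted p = 0.0674). In the alternative test on recovered reads, Snhg6 and Snhg12 both passed (adjusted p = 0.00201 and 0.00242). 4833445I07Rik, the host of Mir191 and Mir425, was at 3.97 to 4.63 FPKM in control and 3.99 to 5.31 FPKM in Myh9-deficient LSKs (0.065 ± 0.096, adjusted p = 0.628). E130102H24Rik, with Mir101a inside, was at 2.67 to 2.96 and 2.22 to 2.62 FPKM (-0.13 ± 0.069, adjusted p = 0.168). With GC and length trends removed it was called lower (-0.25, adjusted p = 0.0227).

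**Figure D2:**
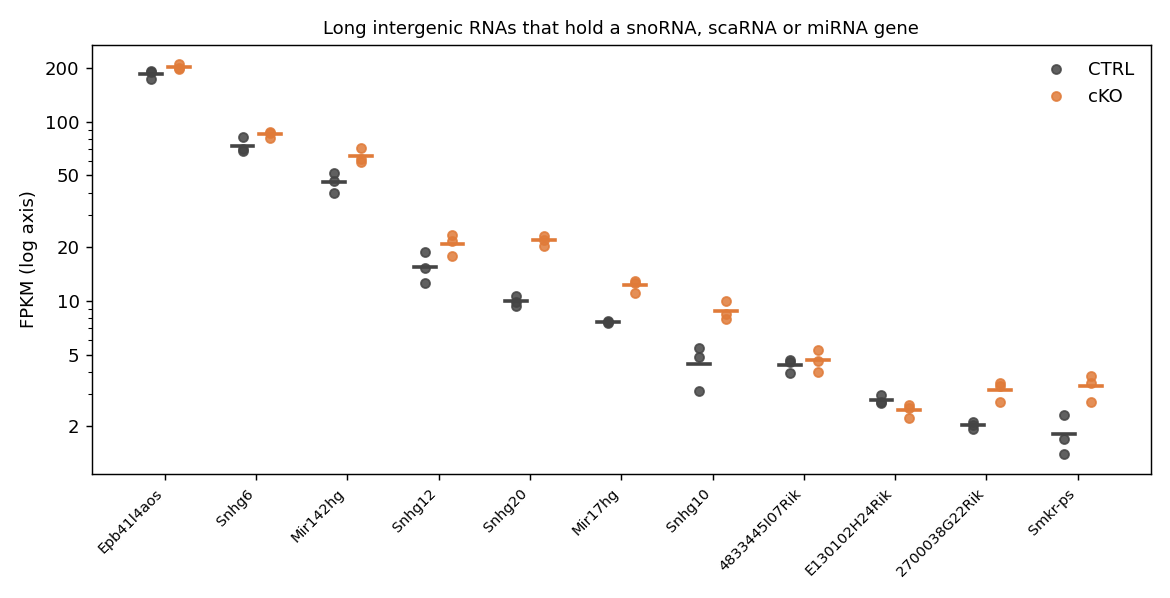
FPKM on a log axis of the 11 long intergenic RNAs that hold a small RNA gene, ordered by mean level, with 1 point for each library and a line at the group mean (CTRL in grey, cKO in orange). Snhg20, Mir17hg and Snhg10 show the clearest separation of the groups, while 4833445I07Rik overlaps.

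The same direction was looked at in snoRNA host transcripts of every biotype, from a list of known hosts. Of 16 tested, 11 were higher, none was lower and 5 were not called, where 19.9% of all genes tested were higher and 20.6% lower. The median log2 fold change was 0.30 (all genes tested, -0.0096), and 5 of the 16 are long intergenic RNAs already described. Across the alternatives 10 to 14 were higher and at most 1 lower, the latter 2410006H16Rik with quantile normalization, TPM or the GC and length trends removed. Outside the lincRNA biotype, Dancr went from 5.05 ± 0.26 to 9.93 ± 0.64 FPKM (SD, n = 3 and 3) with a log2 fold change of 0.85 (adjusted p = 1.0e-04). Snhg4 went from 5.40 ± 0.26 to 9.72 ± 0.89 FPKM (0.74, adjusted p = 3.9e-04) and Snhg8 from 89.9 ± 3.1 to 121 ± 10 FPKM (0.42, adjusted p = 0.00228). Snhg10 and Snhg20 thus had the largest log2 fold changes of the list, with Dancr close to Snhg10.

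Of the 8 genes of box C/D and H/ACA snoRNP proteins, which bind snoRNAs and carry out the modification, 8 were higher. The median log2 fold change was 0.23. For the counts in this paragraph, the shares of all genes tested were 19.9% higher and 20.6% lower. Nhp2 rose from 235 ± 9.2 to 313 ± 13 FPKM (0.41, adjusted p = 5.3e-04), Nop10 from 203 ± 3.4 to 259.9 ± 2.6 FPKM (0.35, adjusted p = 8.7e-05) and Nop56 from 96.9 ± 1.8 to 119.9 ± 1.2 FPKM (0.30, adjusted p = 2.2e-04). Across the alternatives 7 or 8 of the 8 were called higher and none lower. Their log2 fold changes lay below those of Snhg20, Snhg10 and Dancr, a difference that was not tested. Among microRNA host transcripts, 3 were tested and 2 were higher, Mir17hg and Mir142hg, and the third, Mir703, was not called (-0.41, adjusted p = 0.534). Of the microRNA processing factors, 7 were tested: Tarbp2, a partner of Dicer, was higher (12.6 to 14.6 FPKM, 0.20, adjusted p = 0.0144) and Drosha, which cuts the primary transcript, lower (8.45 to 7.25 FPKM, -0.20, adjusted p = 0.0204).

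**Figure D3:**
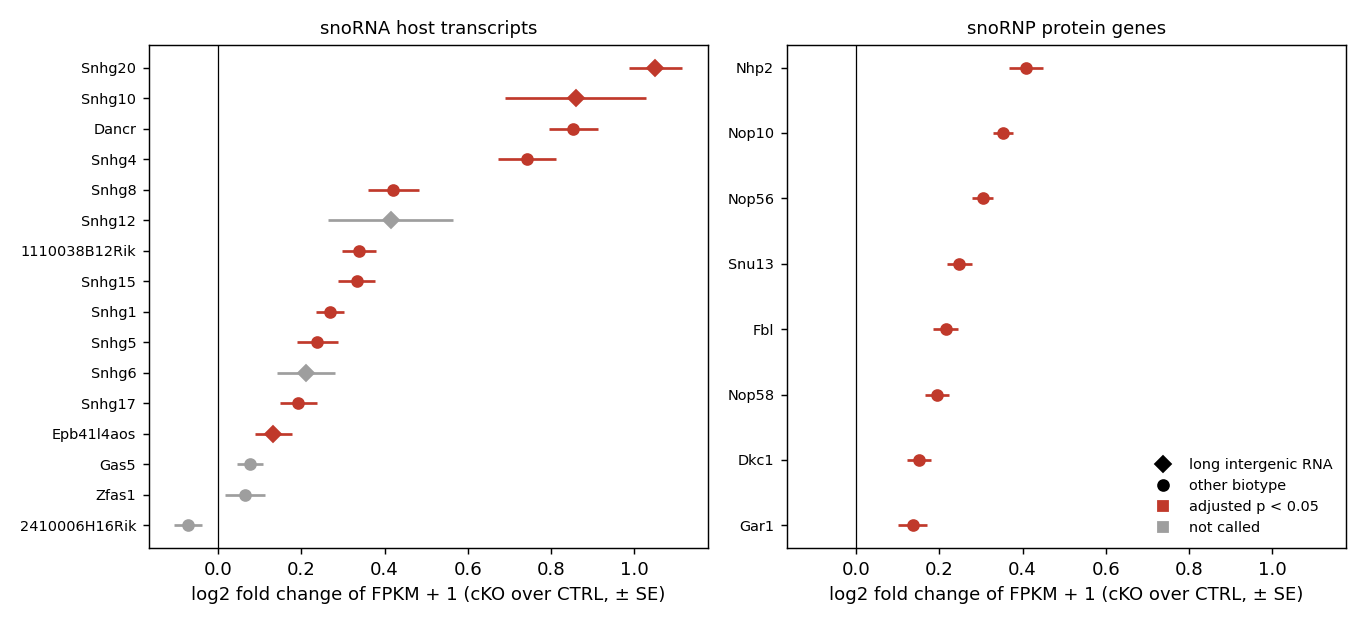
Log2 fold change of FPKM + 1 (x axis, with its standard error as a bar) of the 16 snoRNA host transcripts tested (left, long intergenic RNAs as diamonds and other biotypes as circles) and of the 8 snoRNP protein genes (right). In red are the 11 hosts and 8 protein genes with an adjusted p under 0.05, all to the right of 0.

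None of the 3 well known nuclear and regulatory RNAs among the members was called. Malat1, a component of nuclear speckles, was at 10.6, 11.04 and 10.8 FPKM in control and 10.9, 11.2 and 10.7 FPKM in Myh9-deficient LSKs. The groups overlapped, and the log2 fold change was 0.016 with a 95% interval from -0.07 to 0.10 (adjusted p = 0.751). It had 1358 to 1467 reads in a library, and the fold change was -0.0032 on the TPM scale. Neat1, the scaffold of paraspeckles, was at 2.27, 2.19 and 2.52 FPKM and at 2.59, 2.88 and 2.65 FPKM. All Myh9-deficient libraries were above the control libraries, with a difference of 0.16 ± 0.066 that did not pass (adjusted p = 0.103), but passed on recovered reads (adjusted p = 0.00357) and with GC and length trends removed (0.0228). 2900097C17Rik, the mouse Norad gene, whose RNA binds Pumilio proteins, was at 27.3, 27.8 and 28.3 FPKM and at 24.7, 26.9 and 24.98 FPKM. The groups did not overlap, and the difference of -0.12 ± 0.040 stood at an adjusted p of 0.0522, which passed the threshold in 5 of 16 alternatives. Its transcript has a near copy, Gm7292, over 51.6% of its length, at 0.126 FPKM.

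For the lists that follow, the shares of all genes tested were 19.9% higher and 20.6% lower. From the list of long RNAs of nuclear bodies and X inactivation, 6 were tested, with 1 higher and none lower. That 1 was Firre, a transcript that is not labelled lincRNA (3.45 to 3.98 FPKM, log2 fold change 0.16, adjusted p = 0.0394). Tug1 was at 6.16 and 5.47 FPKM (-0.15, adjusted p = 0.0553). Of 15 protein genes of paraspeckles and speckles, 4 were higher and 3 lower. Tardbp rose from 43.4 to 54.7 FPKM (0.33, adjusted p = 2.65e-04) and Srsf2 from 183 to 224 FPKM (0.29, adjusted p = 4.9e-04). Of 8 genes for partners of Xist, 2 were lower, Rbm15b (-0.24, adjusted p = 0.00193) and Lbr (-0.11, adjusted p = 0.0200), and none was higher. Of 14 factors of nonsense-mediated decay, which removes many spliced host transcripts, 3 were higher and 1 lower. Rbm8a went from 52.97 to 61.6 FPKM (0.21, adjusted p = 0.00139) and Smg6 from 6.09 to 4.95 FPKM (-0.25, adjusted p = 0.00504). No gene of the p53 and MYC linked long RNAs reached the level for testing, and of the 3 tested long RNAs described in blood cells none was called.

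The other large rises were in transcripts with no established role. 4930519L02Rik, among the 5 most abundant members, was at 43.0, 45.5 and 42.7 FPKM in control and 76.8, 74.2 and 75.3 FPKM in Myh9-deficient LSKs. The groups were far apart with little spread, and the log2 fold change of 0.77 ± 0.033 had the lowest adjusted p of the members (1.5e-05). An aligned stretch over 56.1% of its transcript has near copies elsewhere, of which the closest, Gm48119, was listed at 0. Gm42047 was at 3.17, 3.16 and 3.33 FPKM and at 7.02, 7.05 and 6.88 FPKM, again with no overlap (0.92 ± 0.044, adjusted p = 2.4e-05). Its transcript has near copies over 64.2% of its length, of which the closest, Gm48362, was listed at 0.

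1110006O24Rik, a single-exon gene that starts 92 bases from Rab35 on the other strand, was at 2.03, 1.92 and 2.04 FPKM in control and 4.45, 4.86 and 3.43 FPKM in the other group (0.80 ± 0.11, adjusted p = 0.00163). C230035I16Rik was at 3.13, 1.42 and 2.67 FPKM and at 4.54, 5.50 and 4.10 FPKM (0.77 ± 0.20, adjusted p = 0.0222). Both were higher in each Myh9-deficient library, the second with a wide spread in control. Gm20467 was at 2.28 to 3.56 and 5.08 to 5.57 FPKM (0.72 ± 0.12, adjusted p = 0.00402) and Gm17300 at 2.22 to 2.87 and 4.06 to 5.10 FPKM (0.68 ± 0.099, adjusted p = 0.00241). Gm12827 was at 2.29 to 3.55 and 4.13 to 6.15 FPKM (0.66 ± 0.17, adjusted p = 0.0231), on 27 to 74 reads. The call of C230035I16Rik was lost without cKO replicate 1 or 2, and that of Gm12827 without CTRL replicate 1, CTRL replicate 2 or cKO replicate 2. Both were also lost with no filter on low values (adjusted p = 0.0648 and 0.0667). With GC and length trends removed Gm12827 was at 0.48 and not called (adjusted p = 0.0736). Gm12827 and Gm17300 overlap a coding gene on the other strand, Rnf220 and Rcc1. Rcc1 itself rose from 37.6 to 45.3 FPKM (0.26, adjusted p = 7.4e-04), while Rnf220 was at 20.8 and 19.3 FPKM (-0.10, adjusted p = 0.184). The sources used here do not say whether reads were counted by strand. Without strand, reads of such a pair cannot be told apart. The other 8 called rises outside the hosts ranged from 0.19 to 0.62, and those of AU020206, Gm15706, Gm44066 and A730063M14Rik were lost in at least 1 fit with a library left out.

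The 3 members that fell by more than 2-fold were Gm36161, Gm36738 and AI839979. Gm36161 was at 6.27, 6.43 and 6.56 FPKM in control and 2.23, 2.62 and 1.67 FPKM in Myh9-deficient LSKs (-1.24 ± 0.11, adjusted p = 2.9e-04), a ratio of means of 0.339. Its whole transcript has near copies in 384 other genes, so how its reads were shared among them is uncertain. Gm36738 was at 11.4, 11.2 and 12.03 FPKM and at 5.56, 5.29 and 3.82 FPKM (-1.10 ± 0.11, adjusted p = 5.8e-04). AI839979 was at 4.41, 5.16 and 5.32 FPKM and at 1.87, 1.53 and 1.99 FPKM (-1.09 ± 0.091, adjusted p = 2.3e-04). In each of the 3, every control library was at least double the highest Myh9-deficient library.

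Gm17745 was at 4.25, 5.80 and 4.93 FPKM in control and 2.81, 2.33 and 2.76 FPKM in Myh9-deficient LSKs (-0.72 ± 0.11, adjusted p = 0.00245). Gm47467, which is a near copy of Zfp825 over its whole transcript, was at 3.16 to 3.95 and 1.09 to 2.92 FPKM (-0.71 ± 0.22, adjusted p = 0.0393) on 8 to 31 reads. Gm45353, on 10 to 26 reads, was at 4.19 to 5.85 and 2.12 to 4.05 FPKM (-0.63 ± 0.195, adjusted p = 0.0407). These 2 calls rest on few reads and were lost with each library left out in turn except cKO replicate 2 for Gm47467 and cKO replicate 3 for Gm45353. The rest of the 10 largest falls were smaller: Gm26809 at -0.43, 2610035D17Rik at -0.38, A430046D13Rik at -0.32 and Gm807 at -0.26 on the log2 scale, with adjusted p from 0.0115 to 0.0472. Of these, Gm26809 kept its call with every library left out in turn. Gm807 lost it except without CTRL replicate 3, 2610035D17Rik except without CTRL replicate 2 or cKO replicate 1, and A430046D13Rik without CTRL replicate 1. Of the remaining 3 called falls, the log2 fold change was -0.24 to -0.15, and each (Gm46430, BC002059 and Gm19590, named after their values were seen) lost its call in at least 1 such fit.

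**Figure D4:**
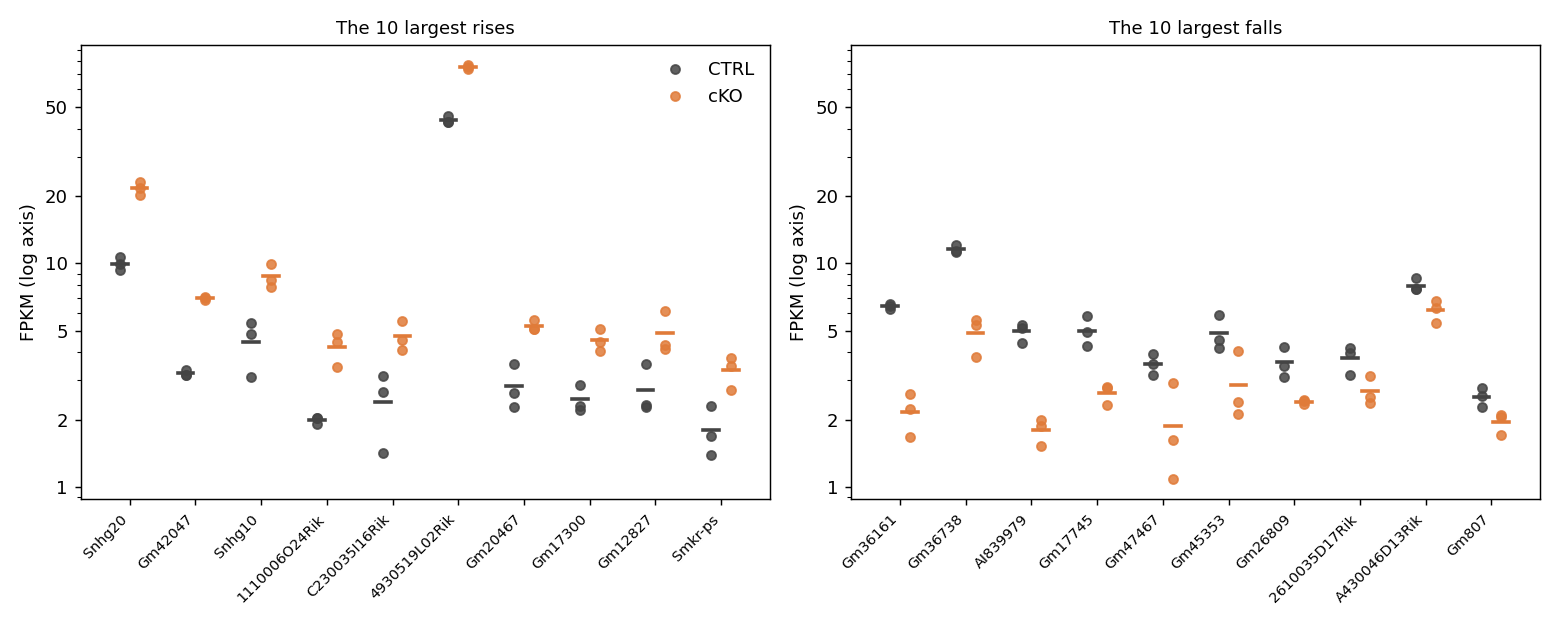
FPKM on a log axis in each library (points) with the group mean (line) for the 10 largest rises (left) and the 10 largest falls (right) among the called long intergenic RNAs, CTRL in grey and cKO in orange. In each of the 20 the groups do not overlap, and 4930519L02Rik stands well above the others in level.

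Of the 5 most abundant members, Gm10076 was not called and shows how 1 library can set a value. It was at 71.2, 132 and 121 FPKM in control and 127, 115 and 122 FPKM in Myh9-deficient LSKs. Without control replicate 1, the log2 fold change of 0.22 ± 0.22 (adjusted p = 0.454) became -0.052 (adjusted p = 0.531). Gm10076 is identical over 99.5% of its aligned bases to Rpl41, a ribosomal protein gene at 2382 and 2778 FPKM in the 2 groups, and the reads of the copies may have been shared between them.

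For 71 members the nearest protein-coding gene was also tested. Across these 71 pairs the log2 fold changes of member and neighbour had a Pearson correlation of 0.14 and a Spearman correlation of 0.23, as a description of pairs measured in the same libraries. Of 26 called members with a tested neighbour, 15 had the same sign as the neighbour. In 10 pairs both genes were called, 7 with the same sign. The pairs named here were chosen after their values were seen. Snhg10 starts 409 bases from Glrx5, a gene of iron-sulfur cluster assembly, on the other strand, and Glrx5 rose from 46.7 to 59.6 FPKM (0.34, adjusted p = 0.00290). 1810044D09Rik (0.62) lies near Chchd4, which went from 15.98 to 19.9 FPKM (0.30, adjusted p = 0.00169). Gm17745 (-0.72) lies 24258 bases from Elk3, which went from 14.1 to 10.48 FPKM (-0.40, adjusted p = 5.9e-04), and Gm36738 (-1.10) 1628 bases from Rac2, which went from 182 to 169 FPKM (-0.10, adjusted p = 0.0333). Opposite signs were seen for Mir142hg and Tspoap1, given above, and for Gm44066 (0.50) and BC035044, which fell from 123 to 82.8 FPKM (-0.57, adjusted p = 2.4e-05).

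Some neighbours were called with larger log2 fold changes than the member, which was not called. These pairs too were chosen after their values were seen. 4833407H14Rik was at 2.74, 2.64 and 3.33 FPKM in control and 2.48, 2.14 and 2.06 FPKM in Myh9-deficient LSKs (-0.27, adjusted p = 0.0509), while Dusp5, a phosphatase of ERK, fell from 20.4 to 8.74 FPKM (-1.14, adjusted p = 2.9e-05). Gm47754 was at 22.1 to 24.8 and 23.4 to 38.8 FPKM (0.33, adjusted p = 0.158), while Ly86, a gene of myeloid and B cells, fell from 16.1 to 5.48 FPKM (-1.40, adjusted p = 6.9e-06). Gm14321 was at 2.33 to 2.51 and 1.93 to 2.14 FPKM (-0.17, adjusted p = 0.0602), while Cebpb fell from 47.3 to 27.7 FPKM (-0.76, adjusted p = 0.00734). These distances were 66386, 162041 and 87049 bases.

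In 19 members the start lay within 1 kb of the start of a coding gene on the other strand, the arrangement of a shared promoter region. Of these 19, 6 were higher, 1 lower and 12 not called, and of the other 79 members 16 were higher and 12 lower (all genes tested, 19.9% and 20.6%). Of the neighbours of the 19, 1 was higher and 2 lower. The absolute log2 fold change had a median of 0.21 in the members and 0.10 in the neighbours, which were also more abundant (median 11.7 against 3.79 FPKM). Fam120aos, for example, was at 5.65 to 7.33 FPKM in control and 8.75 to 9.81 FPKM in Myh9-deficient LSKs (0.42 ± 0.091, adjusted p = 0.0115), while Fam120a, 270 bases away, was at 41.0 and 40.3 FPKM (-0.026, adjusted p = 0.629).

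**Figure D5:**
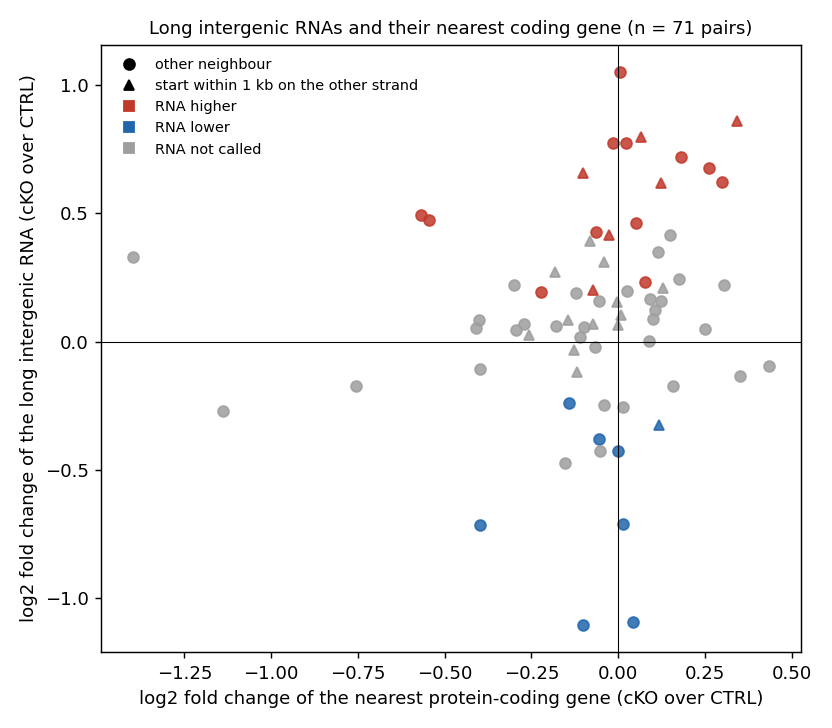
Log2 fold change of FPKM + 1 of the nearest protein-coding gene (x axis) against that of the long intergenic RNA (y axis) for the 71 pairs with both genes tested; triangles mark starts within 1 kb on opposite strands, and colours mark the call of the long intergenic RNA. The points scatter around both axes, and 3 neighbours that fell strongly, Ly86, Dusp5 and Cebpb, sit at the left beside members that were not called.

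RefSeq promoter windows (250 bases before to 50 after the start, GRCm38.p6) were matched to 55 members by gene identity. For 39 of them the RefSeq start is within 100 bases of the start given in the table. Among members that rose, 4930519L02Rik, Mir17hg, Gm20467 and Snhg20 had RefSeq starts 12954, 1511, 1069 and 775 bases away. Their windows may not be promoters of the measured transcripts. All 55 windows were searched on both strands for 6 short motifs, without separate shares for the 39. GGGCGG, the GC box bound by Sp1, was in 41.8% of the 55 windows and in 35.7% of 32851 RefSeq windows, and in 10 of 15 windows of members that rose against 2 of 7 of members that fell. CCGGAAG, a core of ETS factor sites, was in 25.5% of the members' windows and 8.86% of all windows, with 2 of 15 and 2 of 7. TATAAA was in 12.7% against 13.6%, the E-box CACGTG in 5.45% against 7.15%, the AP-1 motif TGANTCA in 7.27% against 7.81% and the CRE motif TGACGTCA in 3.64% against 1.79%. The 32851 windows were not limited to genes expressed in LSK cells, as the members were. No share was taken over windows of expressed genes, so whether any difference is particular to the members was not tested. The windows of 3 hosts that rose and of 2 members that fell more than 2-fold without near copies are printed, 5′ to 3′ on the strand of the gene, with matches to these 6 motifs in capitals:
Snhg10 (chr12:105032230-105032529, minus strand): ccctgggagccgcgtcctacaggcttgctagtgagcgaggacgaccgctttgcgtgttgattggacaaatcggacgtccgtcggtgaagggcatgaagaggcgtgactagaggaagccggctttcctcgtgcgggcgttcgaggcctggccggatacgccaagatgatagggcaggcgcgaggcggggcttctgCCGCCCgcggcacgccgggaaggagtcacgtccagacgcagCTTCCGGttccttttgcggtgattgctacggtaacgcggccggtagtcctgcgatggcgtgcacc
Smkr-ps (chr6:29985079-29985378, plus strand): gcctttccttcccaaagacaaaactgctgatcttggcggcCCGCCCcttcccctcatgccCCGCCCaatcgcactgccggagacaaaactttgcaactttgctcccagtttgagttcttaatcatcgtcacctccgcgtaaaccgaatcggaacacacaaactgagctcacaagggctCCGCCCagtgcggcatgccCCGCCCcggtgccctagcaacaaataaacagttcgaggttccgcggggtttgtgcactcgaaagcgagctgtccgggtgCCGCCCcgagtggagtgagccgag
2700038G22Rik (chr5:23850347-23850646, plus strand): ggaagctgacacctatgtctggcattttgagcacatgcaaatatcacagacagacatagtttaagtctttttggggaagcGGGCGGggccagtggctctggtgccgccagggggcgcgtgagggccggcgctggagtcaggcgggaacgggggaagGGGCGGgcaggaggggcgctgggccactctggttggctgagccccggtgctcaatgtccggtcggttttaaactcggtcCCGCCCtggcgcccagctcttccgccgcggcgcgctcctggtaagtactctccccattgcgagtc
AI839979 (chr5:31571348-31571647, minus strand): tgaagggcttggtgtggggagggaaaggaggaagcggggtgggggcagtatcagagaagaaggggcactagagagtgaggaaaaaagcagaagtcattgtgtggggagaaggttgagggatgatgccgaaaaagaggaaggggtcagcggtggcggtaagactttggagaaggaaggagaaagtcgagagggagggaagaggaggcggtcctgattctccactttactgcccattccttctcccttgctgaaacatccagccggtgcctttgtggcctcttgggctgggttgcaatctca
Gm36738 (chr15:78581540-78581839, minus strand): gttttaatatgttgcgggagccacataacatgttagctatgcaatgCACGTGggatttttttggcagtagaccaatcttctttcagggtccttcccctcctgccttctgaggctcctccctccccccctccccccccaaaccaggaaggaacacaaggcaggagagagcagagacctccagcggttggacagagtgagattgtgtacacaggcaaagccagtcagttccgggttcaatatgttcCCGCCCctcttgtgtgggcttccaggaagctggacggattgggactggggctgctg
The Smkr-ps window holds 5 GC boxes and that of 2700038G22Rik 3, Snhg10 has 1 GC box and 1 CCGGAAG, Gm36738 has 1 GC box and 1 CACGTG, and AI839979 has none of the 6. The Gm36738 window starts from a RefSeq start 27 bases from that of the table. A match is a run of letters and not a measured site.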

How the data were processed

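The authors deposited FPKM values for 54532 genes in 6 libraries, scaled by gene length and library size. Libraries were made with an Illumina TruSeq RNA kit, and the submitters' processing notes name HISAT2 2.0.5 and mm10. The counting program is not given in the sources used here. Multiplied by gene length, 100% of values came out as whole reads (tolerance 0.05 reads), and these recovered reads gave the depth and 1 alternative test. At this depth a floor of 3 reads is 0.151 to 0.171 FPKM for a gene of 1 kb, for counting error only.

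Groups followed the genotypes in the labels. Genes that averaged 1 FPKM or more were tested on log2(FPKM + 1), which understates changes of scarce genes, with limma 3.58.1 (R 4.3.3, lmFit and eBayes with a trend, two-sided, Benjamini-Hochberg over 11552 genes). Every adjusted p comes from this test unless a sentence names another. In a fit on simulated data for this comparison (11552 genes), 88.1% of 1.5-fold, 95.5% of 2-fold and 98.5% of 4-fold changes were called. Of unchanged genes 0.15% were called. The simulation changed 67, 67 and 66 genes by these folds, a smaller share than the 40.5% called in the data. It gave every gene the same spread beyond counting error and covered genes of all levels. These rates are therefore not those of scarce members. The study describes its libraries as independent sets of LSK cells, 3 for each group. Which mice gave each set is not stated, so p-values measure the spread between these sets. Gene models were those of GENCODE M21 (GRCm38), which has 54409 of the identifiers, and near copies of transcripts were searched with BLAST 2.17.0. Other software was Python 3.11.15 and pandas 2.3.3.

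The members and gene lists were chosen with earlier results of these data known. Named members were the 5 most abundant, the 10 largest called rises and falls, members of the lists, hosts of small RNAs and the 3 on each side of the limit, with at most 3 genes from other lists; further members were named after their values were seen. Alternatives were a pseudocount of 0.1, no filter, a mean of at least 5 FPKM in the fit or in the member rule, median of ratios, quantile normalization, TPM, eBayes without a trend, voom on recovered reads, removal of GC and length trends, a replicate block and leaving out each library.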

Additional observations from a re-analysis of the deposited data

How the results depend on the processing

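Of the 22 higher members 14 were called under every alternative that tested them, and of the 13 lower members 5 were. Of the 35, 15 lost the call with at least 1 library left out. Among called members only Epb41l4aos changed sign, at -0.057 with GC and length trends removed (adjusted p = 0.302). Of the 63 members not called, 25 changed sign under at least 1 alternative. Among those with a fold change in the text, it turned for Malat1 on the TPM scale (-0.0032), for 4833445I07Rik with the trends removed (-0.015) and without cKO replicate 2 (-0.020, range with 1 library left out -0.020 to 0.15), and for Gm10076 without CTRL replicate 1 (-0.052, range -0.052 to 0.39). The median log2 fold change turned to -0.022 with the trends removed and was 0.16 with a limit of 5 FPKM, in the fit or as the member rule. The number of members past 2-fold was 7 with a pseudocount of 0.1, 7 with voom on recovered reads and 2 when the fit began at 5 FPKM. The number of lower members was 5 with no filter, which tests 24337 genes, and 4 from 5 FPKM, which tests 36 members. With 1 library left out, 18 to 20 members were higher, 6 to 10 lower and 3 to 5 past 2-fold, and the median was 0.061 to 0.084. The lower members were 6 without CTRL replicate 1, 8 without CTRL replicate 3 and 7 without cKO replicate 3, each with 2 samples left in 1 group. The cause of these changes beyond the numbers of genes and samples was not tested.

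Samples with the same replicate number did not deviate together (correlations from -0.026 to -0.0046), and those with different numbers gave -0.00496 to 0.0164. Whether equal numbers mark littermates or 1 sort day cannot be told from these values. With a replicate block 23 members were higher and 11 lower, of which 20 and 10 were also called without it. Over all genes, the higher and lower calls were 2063 and 2044 with the block against 2295 and 2378 without it. Of the 21 members with fewer than 30 reads in a library 9 were called, beside 35.7% of all members and 40.5% of all genes tested. The part of depth in these calls was not tested.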
